A study of Mus musculus with 6 samples.

Results

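Carboxylesterases are serine hydrolases, most of them held in the lumen of the endoplasmic reticulum, that split ester bonds in drugs, insecticides and lipids into an acid and an alcohol. The mouse carries many of these genes in tandem arrays, and they are best known from liver and gut. Enzymes of the Ces1 group include triacylglycerol hydrolases of liver and fat, whereas Ces2 enzymes prefer esters with a small acid part and are known for activating prodrugs.

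The 8 genes described are Ces1c, Ces1d, Ces1f, Ces1g, Ces1h, Ces2e, Ces2f and Ces2g. Every probe set annotated with one of these symbols was taken, which gave 11 of the 45037 probe sets tested and 8 of 18193 genes. None of the 11 was shared with another annotated gene. Ces1d had 3 probe sets, Ces2f had 2 and the other genes had 1 each. The genes were chosen when their values in the comparison of the genotypes were already known, so these values are described without p-values.

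The comparison was of K5cre-caNrf2 (tg/tg) skin with K5cre-wt (tg/wt) skin, and the series title names the finding of Nrf2 target genes as its aim. caNrf2 is a constitutively active form of Nrf2, a transcription factor of the antioxidant and detoxification response, and K5 is the promoter of the basal keratinocyte keratin Krt5. Both groups carried K5cre, so Cre itself was no difference between them. All 6 mice were female littermates on a mixed FVB/N and C57BL/6 background, killed at postnatal day 2.5, and each of the 3 caNrf2 and 3 control mice gave 1 array of whole back skin. The genotype entries of the caNrf2 arrays read tg/g, and the treatment entries name caNrf2 on all 6 arrays. Groups were taken from the titles, which read transgene strong or wildtype strong with a replicate number. Whole skin mixes cell types, so fewer cells of a type and less RNA per cell cannot be told apart.

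The deposited linear intensities had array medians of 80.3 to 81.6. Pearson correlations of log2 intensity were 0.995 to 0.996 between groups and at least 0.997 within either group. The Nrf2 gene Nfe2l2 read 1136, 1222 and 1242 in caNrf2 skin, against 825, 726 and 774 in control skin, and whether its probe set also detects the transgene was not tested. The keratinocyte markers Krt5, Krt14, Krt1, Krt10, Lor and Flg had means of 9952 or more in either group, and none of the 6 was called. Since all mice were female, probe sets of Y-linked genes gauge the background. The highest group mean among 20 such probe sets was 61.6 and the median 11.8, and a group mean of at most 61.6 is called near background below. One of these 20, for the pseudogene Tspy-ps, was itself called higher, at 46.8, 44.3 and 49.5 in caNrf2 skin against 30.3, 32.6 and 35.4 in control skin, a log2 fold change of 0.52 ± 0.08 (limma, adjusted p = 0.0104). The 20 log2 fold changes ran from -0.11 to 0.52 with a median of 0.10, and 0 of the 20 were called lower.

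Carboxylesterase signal was called higher in caNrf2 skin for Ces1h and, at levels near background, for Ces1c, Ces1f, Ces1g and both dim probe sets of Ces1d, and it was called lower for 1 probe set of Ces2f. Of the 11 probe sets, 7 were near background in both groups, 2 were near background in control skin alone (Ces1h and 1 of Ces1d), and 2 lay above background in both groups (Ces2g and 1 of Ces2f). Log2 fold changes of caNrf2 over control ran from -0.35 for Ces2f to 1.45 for Ces1h, with a median of 0.49, where the median over all probe sets was -0.0040. In limma with Benjamini-Hochberg adjustment over all probe sets, 6 of the 11 were called higher and 1 lower, where 1.04% of all probe sets were called higher and 0.633% lower. Because the genes were chosen on this contrast, nothing is read from that count.

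**Figure D1:**
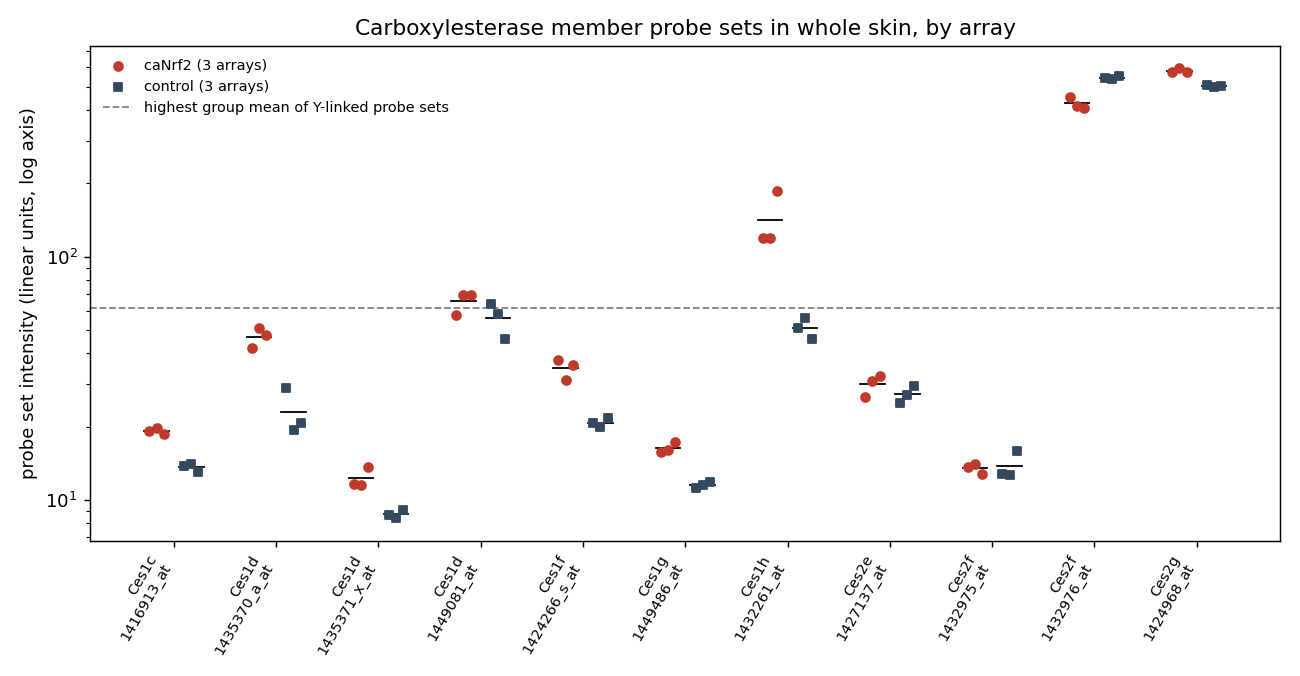
Probe set intensity (log axis) of the 11 carboxylesterase probe sets, with a red circle for each of 3 caNrf2 arrays, a dark square for each of 3 control arrays, black bars for the group means and a dashed line at the background level of 61.6. Ces1h lies at 119 to 186 in caNrf2 skin and at 45.8 to 55.8 in control skin, while only Ces2g and 1 Ces2f probe set lie above the line on all 6 arrays.

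Ces1h had the largest difference. Probe set 1432261_at read 120, 119 and 186 in caNrf2 skin, against 50.8, 55.8 and 45.8 in control skin. The groups did not overlap, and caNrf2 replicate 3 stood above the other two caNrf2 arrays. The means were 141 ± 38.2 in caNrf2 skin and 50.8 ± 5.01 in control skin (SD, n = 3 each), a log2 fold change of 1.45 ± 0.16 (SE of the fit). As the control mean was near background, the difference is given as a bound of at least 2.25-fold, from the geometric mean in caNrf2 skin over the background level. Without caNrf2 replicate 3 the log2 fold change was 1.24. Where groups do not overlap, leaving out an array cannot change the sign.

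Ces1d, the triacylglycerol hydrolase of mouse liver and adipose tissue, was read by 3 probe sets. Probe set 1449081_at, the brightest, read 57.3, 69.8 and 69.4 in caNrf2 skin, against 63.7, 58.0 and 46.0 in control skin, and the groups overlapped. Its log2 fold change was 0.24 ± 0.12, and 0.10 without control replicate 3. It was not called. The control mean was near background, and the geometric mean in caNrf2 skin was 1.06 times the background level. Since the groups overlapped, no least fold is given. The caNrf2 array at 57.3 lay below that level. Probe set 1435370_a_at read 42.2, 50.9 and 47.7 in caNrf2 skin, against 28.9, 19.3 and 20.6 in control skin, with no overlap and a log2 fold change of 1.05 ± 0.14. Probe set 1435371_x_at read 11.7, 11.5 and 13.7 in caNrf2 skin, against 8.65, 8.41 and 9.07 in control skin, again with no overlap and a log2 fold change of 0.49 ± 0.08. All 3 were higher in caNrf2 skin on average. Both probe sets with the larger differences were near background in each group, and in Affymetrix naming the x suffix marks probes that can match other transcripts. The mean of the 3 log2 fold changes was 0.59, so the size given for Ces1d depends on the probe set. Probe set 1435371_x_at was no longer called without caNrf2 replicate 3 or any 1 of the control arrays, or with log2(value + 16).

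Ces1f, a related triacylglycerol hydrolase, read 37.6, 31.0 and 35.8 in caNrf2 skin, against 20.7, 19.9 and 21.7 in control skin. The groups did not overlap, both means (34.8 in caNrf2 skin and 20.7 in control skin) were near background, and the log2 fold change was 0.74 ± 0.08. Its probe set 1424266_s_at carries the s suffix, which marks probes common to several transcripts, although the annotation names Ces1f alone.

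Ces1c, known in mice as a carboxylesterase secreted into plasma, read 19.2, 19.7 and 18.7 in caNrf2 skin, against 13.7, 14.0 and 13.0 in control skin. Ces1g, a liver enzyme that hydrolyses triacylglycerol and cholesteryl ester, read 15.7, 16.1 and 17.3 in caNrf2 skin, against 11.2, 11.5 and 11.8 in control skin. Neither gene's groups overlapped, and both had a log2 fold change of 0.50, with an SE of 0.06 for Ces1c and 0.07 for Ces1g. Y-linked probe sets covered the readings of Ces1c, Ces1g, Ces1f and both dim Ces1d probe sets, with group means that ran from 6.46 to 61.6, so whether the signal of these probe sets came from the named transcripts is uncertain. The difference of Tspy-ps, a Y-linked pseudogene in female mice, was as large as those of Ces1c, Ces1g and 1435371_x_at.

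The dim probe sets moved a little upward as a whole. Among the 19541 probe sets near background in both groups the median log2 fold change was 0.04, with a 5th percentile of -0.20 and a 95th percentile of 0.25. Of these dim probe sets 0.553% were called higher, and 5 of the 7 dim carboxylesterase probe sets were among them. As their genes were chosen on this same contrast, nothing is read from that count. The lower quartile of the arrays was 24.9 to 25.4 in caNrf2 skin and 23.8 to 24.3 in control skin. The 25496 probe sets above background in at least 1 group had a median log2 fold change of -0.04. The upper quartile of the arrays was 325 to 328 in caNrf2 skin and 334 to 341 in control skin. The part of these shifts in the differences of the dim Ces1 probe sets and of the bright Ces2f probe set was not tested. On the scale of log2(value + 16), which damps dim signals, the log2 fold changes were 0.25 for Ces1c, 0.23 for Ces1g, 0.47 for Ces1f, and 0.70 and 0.19 for both dim Ces1d probe sets. Their sign could not change on that scale, because the groups of each of these probe sets did not overlap.

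**Figure D2:**
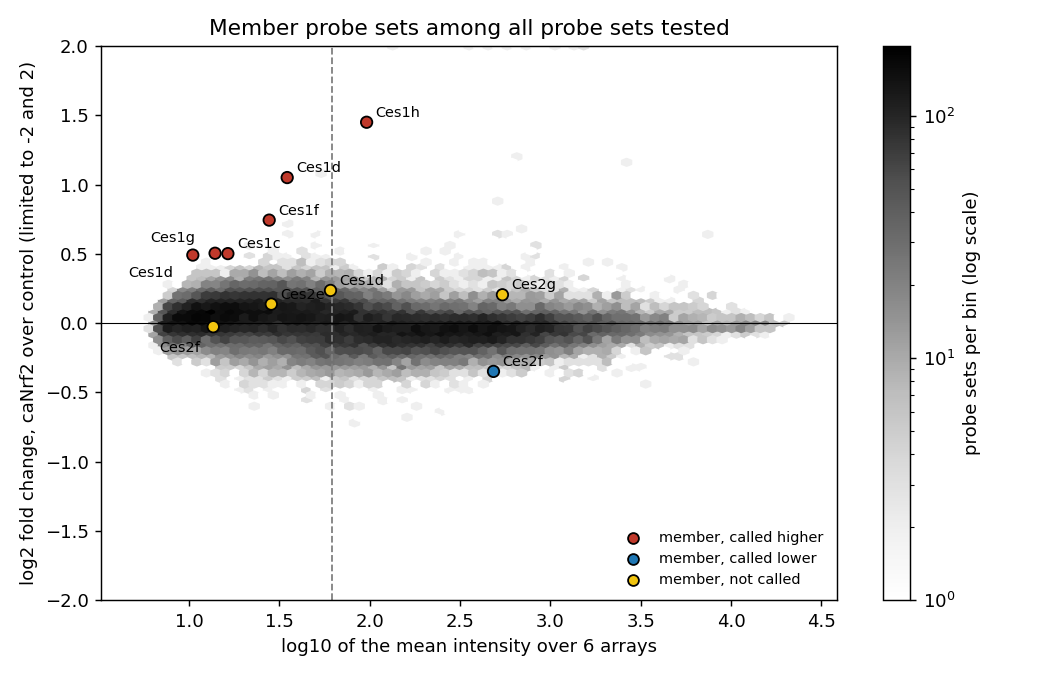
Log2 fold change of caNrf2 over control against log10 of the mean intensity over 6 arrays, with grey bins for all 45037 probe sets tested, coloured points for the 11 carboxylesterase probe sets and a dashed line at the background level of 61.6. The Ces1 points called higher lie above the bulk of probe sets, most of them left of the dashed line, and Ces2f is the 1 point called lower.

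Ces2g and Ces2f gave the brightest carboxylesterase signals of these genes. Ces2g read 575, 594 and 574 in caNrf2 skin, against 509, 500 and 504 in control skin (probe set 1424968_at). The groups did not overlap although the difference was small, and the arrays of each group lay close together. The means were 581 ± 11.4 in caNrf2 skin and 504 ± 4.90 in control skin (SD, n = 3 each), a log2 fold change of 0.20 ± 0.06 that was not called in the fit.

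Ces2f differed the other way. Probe set 1432976_at read 453, 416 and 410 in caNrf2 skin, against 540, 536 and 551 in control skin. Every caNrf2 array lay below every control array, with means of 426 ± 23.3 in caNrf2 skin and 543 ± 7.95 in control skin and a log2 fold change of -0.35 ± 0.07. The fit no longer called it when caNrf2 replicate 2 or 3 or any control array was left out, with the replicate number as a block and with a further quantile normalization, while the log2 fold change stayed between -0.39 and -0.31 in all 14 alternatives. The second Ces2f probe set, 1432975_at, was near background, at 13.6, 14.0 and 12.8 in caNrf2 skin against 12.8, 12.7 and 15.8 in control skin. Its groups overlapped, and its log2 fold change of -0.03 ± 0.09 turned positive without caNrf2 replicate 3 (0.01) or control replicate 3 (0.08).

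Ces2e was near background in both groups, at 26.5, 30.9 and 32.3 in caNrf2 skin against 25.0, 27.1 and 29.4 in control skin. The groups overlapped, and the log2 fold change was 0.14 ± 0.09. It was 0.22 without caNrf2 replicate 1, 0.08 without caNrf2 replicate 3 or control replicate 1 or with a further quantile normalization, and 0.09 with log2(value + 16). Of the 7 Ces1 probe sets, all had positive log2 fold changes, in 6 the groups did not overlap, and 6 were called higher. Of the 4 Ces2 probe sets, 1 was called lower and none higher. Those of Ces2e and Ces2g had positive log2 fold changes, and the groups of Ces2g (higher) and 1432976_at (lower) did not overlap. Log2 fold changes were positive in 48.7% of all probe sets and in 63.8% of those near background in both groups. Since the genes were chosen on this contrast, nothing is read from these counts. Groups that do not overlap occurred with caNrf2 higher in 11.4% and with caNrf2 lower in 11.7% of all probe sets.

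The upstream windows of these genes were read from RefSeq promoter sequences of GRCm38.p6, which hold 250 bases before each annotated start. A window was given for 6 of the 8 genes, Ces1c, Ces1g, Ces1h, Ces2e, Ces2f and Ces2g. The core of the antioxidant response element bound by Nrf2 with small Maf proteins, TGACNNNGC on either strand, was found in 0 of the 6 windows and in 10.2% of all 32851 windows. The AP-1 letters TGANTCA, which are the same on both strands in their fixed bases and can overlap that core, were in 0 of the 6 and in 6.75% of all windows. These counts say only that the letters are not in these windows.

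The windows of Ces2e, Ces2f and Ces2g share a run of 9 bases, found by a search for the longest run common to them. Of 9 other carboxylesterase genes with a window, 1 held it, Ces2a. It was on either strand in 0.222% of all windows. The run is shown in capitals within 30 bases of the gene's strand, at chr8:104733923-104733952 for Ces2a, chr8:104926170-104926199 for Ces2e, chr8:104947254-104947283 for Ces2f and chr8:104961591-104961620 for Ces2g, all on the plus strand, because the run is common to all 4 windows.
Ces2a: tgcaataagaACTTTGCCCcatccaatcaa
Ces2e: ggcaatacgaACTTTGCCCcgccctagtga
Ces2f: gaagaaaaaaACTTTGCCCcaccccacgga
Ces2g: aaatacagcgACTTTGCCCtgcctccaggc
The run begins 70 bases before the annotated start of Ces2a, 80 before that of Ces2e, 92 before that of Ces2f and 117 before that of Ces2g.

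The longest runs shared by the windows of Ces1c, Ces1g and Ces1h had 6 bases. The TATA letters TATAAA were found, on either strand, in the windows of Ces1g and Ces1h and in 12.4% of all windows. Of 9 other carboxylesterase genes with a window, 1 held them, Ces3b, as TATAAA on the gene's strand 30 bases before the start. The last 120 bases before the start are shown for both genes, because theirs were the windows of the described genes that held these letters, with the letters as they stand on the gene's strand, TTTATA, in capitals. They lie on the minus strand at chr8:93337210-93337329 for Ces1g and chr8:93379778-93379897 for Ces1h.
Ces1g: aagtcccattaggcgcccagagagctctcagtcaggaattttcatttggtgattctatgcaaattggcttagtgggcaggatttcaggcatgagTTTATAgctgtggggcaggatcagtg
Ces1h: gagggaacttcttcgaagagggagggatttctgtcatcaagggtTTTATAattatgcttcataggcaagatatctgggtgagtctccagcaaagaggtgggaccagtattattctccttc
The letters begin 26 bases before the start of Ces1g and 76 bases before the start of Ces1h. Matches of letters are a description of these windows and show no binding.

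In the RefSeq gene order the family forms 2 unbroken clusters of protein-coding genes on chromosome 8. The first runs from Ces1a to Ces1h and Ces5a, and 5 of its 9 genes are among those described. The second runs from Ces2a through Ces2h, Ces3a and Ces3b to Ces4a, and 3 of its 10 genes are among those described. Of the 12 nearest protein-coding genes on the outer sides of the clusters, 11 were measured. None of these 11 was called higher or lower in limma, and their median log2 fold change was 0.02.

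**Figure D3:**
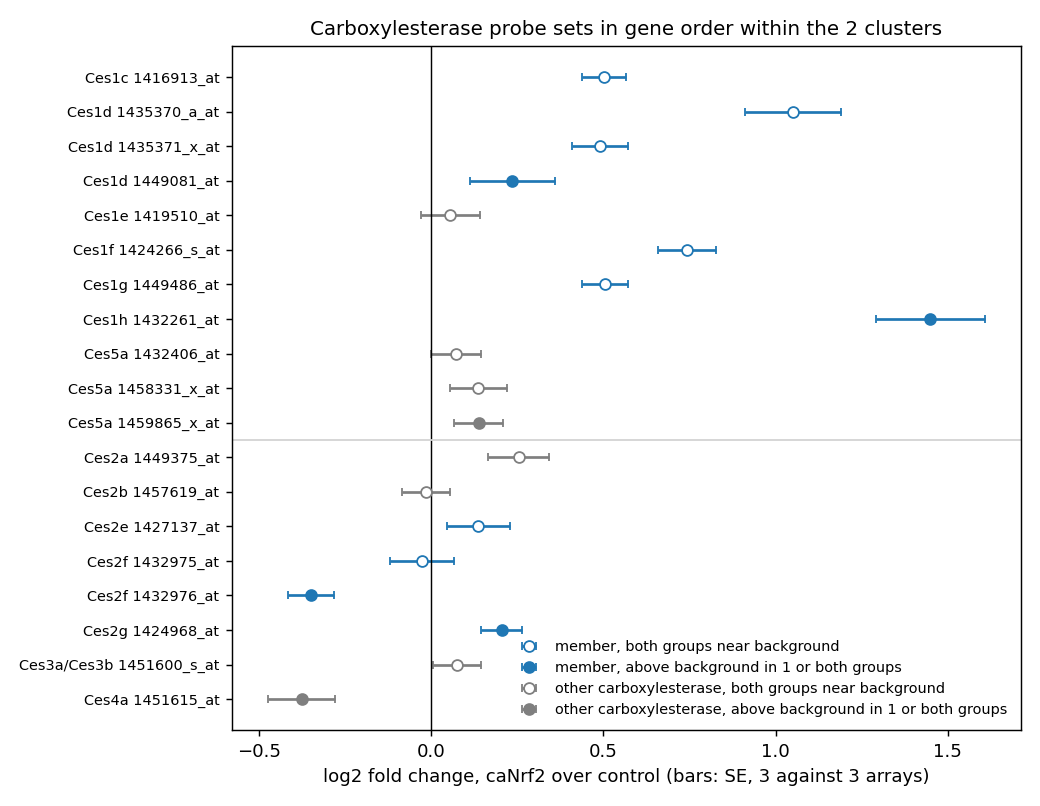
Log2 fold change of caNrf2 over control (bars, SE; 3 against 3 arrays) for all 19 carboxylesterase probe sets, ordered by gene within the 2 clusters, which the grey line separates. Blue marks the 8 genes described, grey the other carboxylesterases, and open circles mark probe sets near background in both groups. The 5 largest values belong to Ces1h, Ces1d, Ces1f, Ces1g and Ces1c, with Ces1e and Ces5a of the same cluster between 0.06 and 0.14.

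The other carboxylesterases on the array were Ces1e, Ces2a, Ces2b, Ces4a and Ces5a, and a probe set annotated to both Ces3a and Ces3b. Of their 8 probe sets, 0 were called in either direction in limma, and 6 were near background in both groups. Ces4a was bright, at 391, 336 and 364 in caNrf2 skin against 490, 521 and 411 in control skin. Every caNrf2 array lay below every control array, with a log2 fold change of -0.38 ± 0.10 (limma, adjusted p = 0.0997), and it was called lower with an intensity trend in the fit, with or without robust variances. Ces5a is best known as cauxin from the kidney and urine of cats. Its brightest probe set, 1459865_x_at, read 346, 369 and 319 in caNrf2 skin against 309, 314 and 316 in control skin. The log2 fold change was 0.14 ± 0.07 (limma, adjusted p = 0.345). Given its x suffix, whether this signal came from Ces5a is uncertain. Both other Ces5a probe sets were near background. Probe set 1432406_at, without a suffix, had means of 19.2 in caNrf2 skin and 18.2 in control skin and gave 0.07. Probe set 1458331_x_at gave 0.14. Ces1e, the enzyme egasyn that retains beta-glucuronidase in the endoplasmic reticulum, gave 0.06 ± 0.09 (limma, adjusted p = 0.77), at means of 9.91 in caNrf2 skin and 9.53 in control skin. Ces2a gave 0.25 ± 0.09 (limma, adjusted p = 0.189), Ces2b -0.02 ± 0.07 (0.933) and the shared Ces3a and Ces3b probe set 0.07 ± 0.07 (0.615), all 3 near background. Every caNrf2 array lay above every control array for Ces5a probe set 1459865_x_at and for Ces2a. Ces2a read 16.3, 15.8 and 13.0 in caNrf2 skin, against 12.3, 12.8 and 12.6 in control skin. That some genes were called and others of the same cluster were not does not show that they differ, and the difference between them was not tested.

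Lists of genes of related function were read beside the carboxylesterases. Counts are of genes read by their brightest probe set, and over all 18193 genes 274 (1.51%) were called higher and 143 (0.786%) lower, with a median log2 fold change of -0.0041. Of 17 measured esterases outside the family, 1 was higher, 0 were lower and 16 were not called, with a median of -0.06. The gene called was Pafah2, which hydrolyses oxidised phospholipids and platelet-activating factor. It read 844, 854 and 815 in caNrf2 skin, against 617, 596 and 612 in control skin, and rose by 0.46 ± 0.06 on the log2 scale (limma, adjusted p = 0.00443).

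Of 18 measured lipases of neutral lipids, 1 was higher, 1 was lower and 16 were not called, with a median of 0.04. Lipn, a lipase of differentiating keratinocytes, read 78.4, 78.8 and 86.8 in caNrf2 skin, against 55.4, 58.9 and 59.1 in control skin, and rose by 0.49 ± 0.07 (limma, adjusted p = 0.00635). Its control mean of 57.8 was near background, so a bound of at least 1.32-fold is given, from the geometric mean in caNrf2 skin over the background level. Lipg, endothelial lipase, read 175, 177 and 169 in caNrf2 skin, against 283, 276 and 207 in control skin, with a log2 fold change of -0.54 ± 0.11 (limma, adjusted p = 0.0461). It was no longer called when any 1 of the caNrf2 arrays or control replicate 1 or 2 was left out, with the replicate block and with a further quantile normalization, at adjusted p up to 0.16. A second Lipg probe set gave -0.63 (limma, adjusted p = 0.0181), and a dim one gave 0.09. Of 12 lipid droplet proteins, 0 were called, with a median of -0.02.

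Of 12 measured receptors (the Ahr and nuclear receptors), which sense xenobiotics and lipids and several of which regulate carboxylesterase genes in liver, 1 was higher, 0 were lower and 11 were not called, with a median of 0.02. Ppard, a receptor for fatty acids expressed in keratinocytes, read 614, 656 and 709 in caNrf2 skin, against 350, 323 and 311 in control skin. It rose by 1.01 ± 0.08 (limma, adjusted p = 9.28e-05), while its dimmer probe set gave 0.22 (limma, adjusted p = 0.197). The xenobiotic receptor genes Nr1i2 and Nr1i3 were near background in both groups.

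Markers of other cell types that could carry these transcripts were read beside them. Of 8 measured hepatocyte markers 0 were called, and their summed intensity was 465 to 475 on caNrf2 arrays and 438 to 481 on control arrays, with 5 of the 8 near background. All 4 enterocyte markers were near background, and 0 were called. Of 5 adipocyte markers, 4 were not called, Adipoq among them, and Lep was lower, at 132, 119 and 118 in caNrf2 skin against 188, 185 and 176 in control skin (log2 fold change -0.58 ± 0.07; limma, adjusted p = 0.00231). The adipocyte sum was 20380 to 21934 on caNrf2 arrays and 20577 to 21857 on control arrays. Of 7 sebocyte markers listed, 3 were measured. Scd3 fell by 0.92 ± 0.11 and Elovl3 by 0.38 ± 0.07 on the log2 scale (limma, adjusted p = 0.00201 and 0.0326). Mc5r, whose groups overlapped, was not called (log2 fold change -0.12; limma, adjusted p = 0.42). The sum of the 3, of which Elovl3 was the brightest, was 930 to 1007 on caNrf2 arrays and 1252 to 1405 on control arrays. The part of sebaceous cells in the lower Ces2f signal was not tested. The sums of 6 macrophage, 5 endothelial and 6 skeletal muscle markers overlapped between the groups, and 0 of these genes were called. Of 5 erythroid markers listed, 2 were measured, 1 of them near background. Their sums overlapped as well, and 0 were called. Other sums did not overlap, although 0 of 6 genes were called in either list. The keratinocyte sum was 91915 to 94566 on caNrf2 arrays and 89281 to 90636 on control arrays, and the fibroblast sum was 68967 to 70496 on caNrf2 arrays and 71072 to 73629 on control arrays. The part of either difference in the carboxylesterase signals was not tested.

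The genes whose pattern over the 6 arrays was most like that of Ces2g, the brightest of the carboxylesterase probe sets described, were Ubap1, Lce3f, Pou3f2, Xkr8 and Ros1, with Pearson r of log2 intensity from 0.996 to 0.997. The arrays fall into the 2 genotypes, so such values follow from any clear difference between the groups, and they are given as a description.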

How the data were processed

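Whole back skin of 3 caNrf2 and 3 control mice was measured on 1-colour Affymetrix arrays from 2 ug of total RNA per the labels' protocols. The authors deposited intensities per probe set, and the submitters' processing notes name RMA as the method. The intensity values lie on a linear scale, since they run to 21290, and RMA works on a log scale, so they had been transformed back. The sources used here do not give its version or any later scaling, and the direction is that of higher signal for more RNA. RMA normalizes quantiles, so a shift of most transcripts one way could not be seen. The number of arrays limits the precision.

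Of 45101 probe sets, 64 controls were left out. Of the 45037 tested, 34945 carried a single gene symbol, 932 several and 9160 none. Symbols came from the platform annotation, updated through Entrez identifiers with the RefSeq table of GRCm38.p6, in which 34741 matched. Log2 intensities were fitted with limma 3.58.1 (R 4.3.3; lmFit, eBayes without trend, 4 residual and 5.72 prior degrees of freedom) with group as the term, two-sided, with Benjamini-Hochberg adjustment over all probe sets, and called at an adjusted p under 0.05. The fit is per probe set, so that each probe set of the described genes enters. It was tested on simulated data. A gene in a list is read by its brightest probe set over the 6 arrays. Where 1 group was near background and the groups did not overlap, the fold is a bound. It sets the mean log2 value of the brighter group against the higher of the background level and the dimmer group's own mean. The carboxylesterases and all lists were chosen with earlier results of these data known. All 8 genes with each probe set are named, each other measured carboxylesterase, at most 4 called genes per list, called markers, and the 5 genes most like the brightest probe set. Replicate numbers came from the titles, and no source states that they pair mice.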

Additional observations from a re-analysis of the deposited data

How the results depend on the processing

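The log2 fold changes of the 11 carboxylesterase probe sets were recomputed in up to 14 alternatives, 145 values in all. Of these 139 moved by less than the spread between replicates, and 6 moved further with the same sign (5 with log2(value + 16), and Ces2g to 0.24 with a further quantile normalization). Among the 139, 2 values of the dim, uncalled Ces2f probe set turned positive. With a mean intensity of at least 32 required, 2 rather than 6 of the probe sets were called higher, because fewer were tested. The 1 call as lower became 0 with the replicate block and with a further quantile normalization, and 0 to 1 with an array left out. Over all probe sets, 470 were higher, but 342 with the replicate block, and 280 to 354 with an array left out. The higher count rose to 644 with an intensity trend, 671 with robust variances added, 579 with array weights and 553 with log2(value + 16). The lower count was 285, but 577 with an intensity trend, 610 with robust variances added, 428 with log2(value + 16), 177 with the replicate block, and 79 to 270 with an array left out. Deviations of same-numbered arrays correlated at 0.04, 0.16 and 0.08, and those of other-numbered arrays at -0.14 to 0.07. Only caNrf2 replicate 1 correlated better with another number, that of control replicate 3. These values lean toward pairs, but no source states any, so the replicate block is given as an alternative. With an intensity trend, with or without robust variances, 2 esterases rather than 1 and 2 lipases rather than 1 were higher, and 1 lipid droplet protein rather than 0 and 1 other carboxylesterase probe set rather than 0 were lower. The lower lipase count of 1 became 0 with the replicate block and with a further quantile normalization, and 0 to 2 with an array left out. The cause of these changes was not tested. With the second highest Y-linked mean (54.7) as background, 7 probe sets stayed near background in both groups, and 6 with the highest among probe sets without a suffix (46.9), a level chosen after seeing the data. Averaging all probe sets of a gene gave 0.59 for Ces1d, against 0.24 for its brightest probe set, and -0.19 against -0.35 for Ces2f.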
